A study of Homo sapiens with 12 samples.

Results

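LS411N-BR, a derivative of the human colon cancer line LS411N that is resistant to BRAF inhibitors, was compared with its parent while a hairpin against MUC1 was switched on in both. The comparison asks which differences between the lines persist once MUC1 is low. It takes the 6 of 12 libraries from cells given doxycycline, 3 of LS411N and 3 of LS411N-BR. Of 25540 genes listed for both lines, the 11661 with at least 1 TPM, the deposited unit of abundance scaled for gene length and library total, in at least 3 of the 6 libraries were tested. Every group carried a tetracycline-inducible short hairpin RNA against MUC1 and was resistant to puromycin. LS411N with doxycycline and LS411N-BR with doxycycline received 500 ng/ml of the drug, and the corresponding groups without it received 0.1% DMSO as vehicle. All cells grew in RPMI medium with 10% serum, and LS411N-BR was kept in 4 µM BRAF inhibitor. The inhibitor was thus present for 1 line alone, so resistance and the presence of the drug cannot be told apart. No group received doxycycline without carrying the MUC1 hairpin, so the silencing of MUC1 and doxycycline itself cannot be told apart either. The sources used here give neither the inhibitor's name, nor the time in doxycycline, nor whether LS411N-BR is 1 clone. Cells were cultured in triplicate, and no source says that the 3 cultures of a group were independent. The p-values therefore measure the spread between these samples, which may be technical.

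LS411N carries an activating BRAF mutation, which drives the MAPK cascade from RAF through MEK to ERK. Colon cancer cells under BRAF inhibition are known to reactivate this cascade through receptor tyrosine kinases such as EGFR. MUC1 is a transmembrane mucin whose cytoplasmic tail takes part in signalling. The normal colon epithelium renews itself from WNT-dependent stem cells at the crypt base, which give rise to absorptive colonocytes and to mucus-secreting goblet cells.

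The libraries resembled each other in breadth, with 11297 to 11455 genes at 1 TPM or more. The 2 lines were deposited in separate tables, and the shared genes held 76.1 to 80.3% of the TPM of an LS411N library and 100% in LS411N-BR. Values were therefore rescaled over the shared genes and then by the median of ratios between libraries. The SD over genes of the log2 difference between 2 libraries of a group was 0.0986 to 0.125, except for pairs with replicate 3 of LS411N without doxycycline, where it was 0.229 and 0.234. Colon epithelium markers were present in both lines, with 13 of 14 tested and a summed level of 4230 to 4520 TPM in LS411N and 5060 to 5220 TPM in LS411N-BR. CD3D, MS4A1 and NKG7 of the immune markers and CDH5, EMCN and CLDN5 of the endothelial markers were at 0 in all 6 libraries, and so were MLANA and TYR of the melanocyte markers. The summed immune markers were 1690 to 1770 TPM in LS411N and 123 to 129 TPM in LS411N-BR, nearly all of it from LYZ and CD68. The fibroblast markers summed to 0.776 to 0.979 TPM in LS411N and 3.11 to 4.02 TPM in LS411N-BR, of which LUM was the only one tested.

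MUC1, the target of the hairpin, was low in all 6 libraries and lower in the resistant line. It measured 1.16, 0.974 and 1.23 TPM in LS411N with doxycycline and 0.702, 0.423 and 0.465 TPM in LS411N-BR with doxycycline. The groups did not overlap, and the means were 1.12 ± 0.132 and 0.53 ± 0.15 TPM (SD, n = 3). MUC1 did not reach the minimum for testing with doxycycline. Without that minimum its line difference was -0.47 ± 0.08 on the log2(TPM + 1) scale (SE, limma adjusted p = 0.0034). Without doxycycline the means were 6 TPM in LS411N and 4.37 TPM in LS411N-BR, a log2 difference of -0.36 that missed the threshold (limma adjusted p = 0.055). The 2 line differences of MUC1 did not differ detectably, with a change of -0.1 ± 0.19 (limma interaction term, adjusted p = 0.79). That change is on the log2(TPM + 1) scale. The ratio of the LS411N-BR mean to the LS411N mean was 0.729 without doxycycline and 0.473 with it. Libraries with and without doxycycline were scaled separately. On a scale common to all 12 libraries, values would be about 0.95 and 1.04 times those given with and without doxycycline. Levels with and without the drug are thus side by side only approximately.

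The lines differed across most of the transcriptome with MUC1 silenced, mostly by small amounts. A gene was called where limma gave a Benjamini-Hochberg adjusted p under 0.05. With doxycycline 4905 genes (42.1%) were called higher in LS411N-BR and 4420 (37.9%) lower, 80% of the genes tested in all, and the 3 libraries of each line did not overlap for 81.9% of the genes tested. Differences of at least 2-fold on the log2(TPM + 1) scale, which is used for every log2 difference here and understates those of genes with few TPM, were called for 386 genes higher (3.31%) and 485 genes lower (4.16%), 7.47% in all. Of the 386, 94 had a mean under 1 TPM in LS411N and so were tested only through the resistant line, where they had to be higher. Of the 485, 68 had a mean under 1 TPM in LS411N-BR.

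Most of the large line differences were present with and without doxycycline. Without doxycycline 363 genes (3.16%) were 2-fold higher in LS411N-BR and as many 2-fold lower, 6.32% of 11483 tested. Calls at any size were made for 39% higher and 32.9% lower, 72% in all. Of the 11360 genes tested in every comparison, 577 had a 2-fold call in the same direction in both, 262 higher and 315 lower. These persisting genes were 73.4% of the 357 genes 2-fold higher with doxycycline and 74.4% of the 352 genes 2-fold higher without it. For lower genes they were 66.7% of 472 with doxycycline and 89% of 354 without it. No gene had 2-fold calls in opposite directions, and 66 were called in opposite directions at any size. Across genes, which are not independent replicates and share the scaling of each line, Pearson's r between the 2 line differences was 0.941. The comparisons with and without doxycycline share no library.

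**Figure D1:**
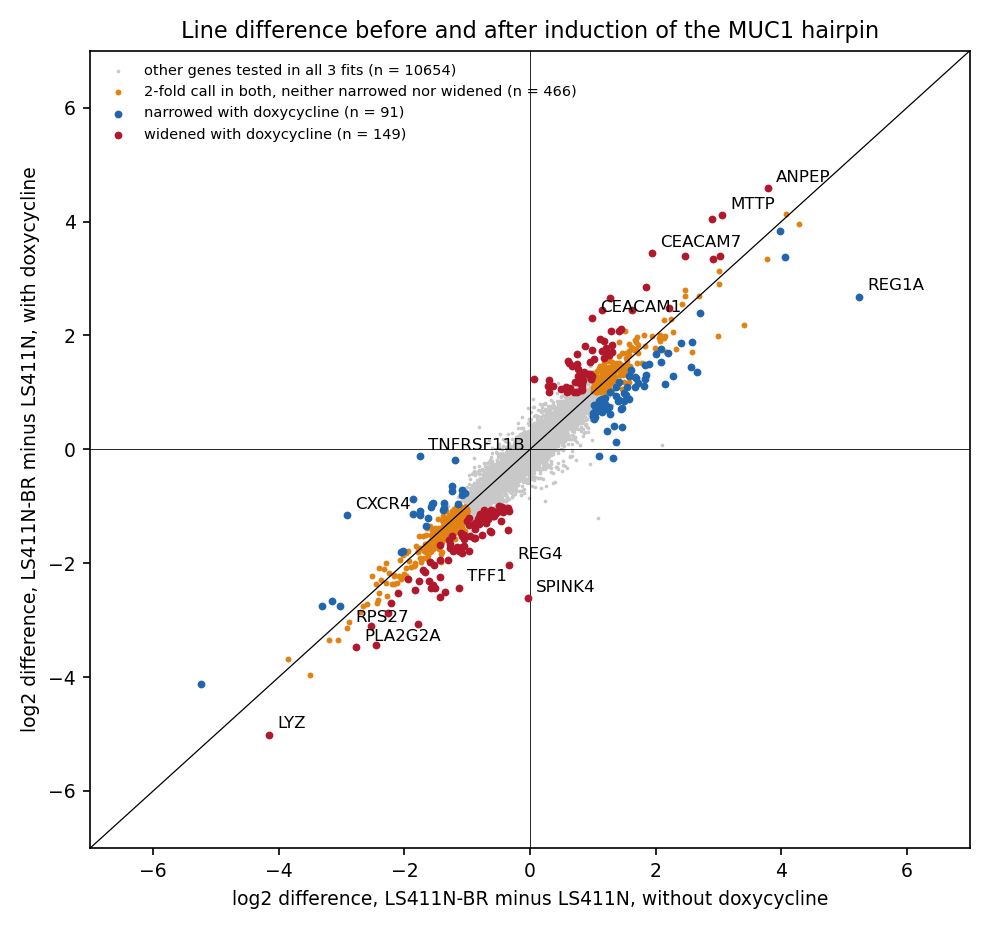
Each point is a gene tested in every comparison, with its log2 difference (LS411N-BR minus LS411N) without doxycycline on the horizontal axis and with doxycycline on the vertical axis; the diagonal marks equal differences. Orange points have 2-fold calls in both and lie near the diagonal, 149 red points are larger with doxycycline, and 91 blue points are smaller with it; REG1A and SPINK4 lie farthest from the diagonal among the labelled genes.

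ANPEP, MTTP and CEACAM7, all genes of the absorptive colonocyte, were among the 10 largest differences toward the resistant line. ANPEP, the brush-border aminopeptidase N, measured 1.09, 1.07 and 1.07 TPM in LS411N and 50.6, 48.7 and 48.4 TPM in LS411N-BR. Its log2 difference was 4.59 ± 0.04 (SE, limma adjusted p = 2.4e-13), the largest of all genes whose higher line reached 10 TPM, and it was 3.78 without doxycycline. MTTP, which loads lipid onto apolipoprotein B, measured 0.333, 0.34 and 0.474 TPM in LS411N and 22.4, 22.7 and 23.2 TPM in LS411N-BR, a log2 difference of 4.11 ± 0.05 (limma adjusted p = 7.6e-12). Both genes were near or under 1 TPM in every parental library and above 20 TPM in every resistant one. C10ORF99, an intestinal secreted peptide, had a mean of 0.763 TPM in LS411N and 28 TPM in LS411N-BR. The adhesion molecule CEACAM7 measured 0.439, 0.507 and 0.522 TPM in LS411N against 16.5, 14.9 and 14.5 TPM, a log2 difference of 3.45 ± 0.06. Among the same 10 genes, TMEM200A had means of 0.0391 and 13.7 TPM, TSPAN7 means of 1.89 and 28.9 TPM, and FAM84A means of 2.66 and 37.2 TPM. The antisense genes TAB3-AS1 (0.576 and 23.2 TPM) and TMEM132D-AS1 (9.32 and 108 TPM) and the histone gene HIST1H4K (83 and 1500 TPM) complete the 10. Their values are uncertain, because the sources used here do not say how strand and near-identical copies were counted. All 10 were also 2-fold higher without doxycycline. MTTP, C10ORF99, TAB3-AS1, TMEM200A and CEACAM7 had LS411N means under 1 TPM with and without doxycycline. These genes were tested only through the resistant line and so had to be higher both times. For ANPEP this held without doxycycline alone, where its LS411N mean was 0.677 TPM.

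Among the 10 largest differences toward the parental line were 4 genes of secreted defence or digestive proteins. LYZ, which encodes the antibacterial enzyme lysozyme, measured 1660, 1660 and 1750 TPM in LS411N and 49.7, 54.1 and 50.6 TPM in LS411N-BR. The parental mean was 32.9 times the resistant one, and the log2 difference was -5.01 ± 0.04 (SE, limma adjusted p = 2.4e-13). Without doxycycline it was -4.15, and the widening of -0.85 ± 0.06 was called (limma interaction term, adjusted p = 8.1e-06). PLA2G2A, a secreted phospholipase found with lysozyme in Paneth cells, measured 176, 165 and 157 TPM in LS411N and 13.3, 14.4 and 14.6 TPM in LS411N-BR, a log2 difference of -3.47 ± 0.05. The trypsinogen genes PRSS2 (-4.12) and PRSS1 (-3.69) were also among the 10 largest, but they are near-identical copies whose reads may be shared. The others were PET100, an assembly factor of cytochrome c oxidase (-3.96), the spliceosome component SNRPF (-3.35), the calcium-binding TESC (-3.35), the aldehyde dehydrogenase ALDH3A1 (-3.43), the ribosomal RPS27 (-3.14) and the actin-like ACTL8 (-3.11). All 10 were 2-fold lower without doxycycline as well. PRSS2 and PRSS1 had LS411N-BR means under 1 TPM with and without doxycycline. Both were thus tested only through LS411N and had to be lower each time.

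The program of absorptive colonocytes was higher in the resistant line. Of 26 tested members of a 38-gene list, 22 were called higher and 3 lower, against 42.1% and 37.9% of all genes tested. At 2-fold 16 were higher and 1 lower. The median log2 difference of the 26 was 1.38, against 0.03 for all genes tested. Of the 26, 6 had a parental mean under 1 TPM and so had to be higher. Of the other 20, 12 were 2-fold higher and 1 lower, with a median of 1.23. KRT20, the keratin of mature colon epithelium, measured 21.6, 19.7 and 21.8 TPM in LS411N and 157, 152 and 146 TPM in LS411N-BR, a log2 difference of 2.79 ± 0.05 (limma adjusted p = 2.2e-11). The fatty acid carrier FABP1 measured 50.6, 41.7 and 50.4 TPM against 182, 189 and 157 TPM, a log2 difference of 1.87 ± 0.08. For both genes every resistant library exceeded every parental one severalfold.

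The CEACAM family of adhesion molecules and the apical enzymes showed the same direction. CEACAM1 measured 6.48, 6.2 and 6.26 TPM in LS411N and 34.7, 34.9 and 35.7 TPM in LS411N-BR, a log2 difference of 2.3 ± 0.04. CEACAM5 (1.39) and CEACAM6 (1.88) were higher as well, each with non-overlapping lines, as for 81.9% of all genes tested. The peptidase DPP4 measured 43.1, 42.2 and 42.4 TPM against 124, 121 and 125 TPM, a log2 difference of 1.51 ± 0.03. GUCA2A, which encodes the hormone guanylin, differed by 1.9, the fatty acid carrier FABP2 by 2.45 and the chloride exchanger SLC26A3 by 1.76, the latter 2 from parental means of 0.153 and 0.126 TPM. CA2, a carbonic anhydrase of the colonocyte, went the other way, with 60.1, 68.6 and 63.3 TPM in LS411N and 27.8, 29.1 and 29 TPM in LS411N-BR (-1.13 ± 0.05). Of the list, 13 genes persisted as 2-fold higher and 1 as lower. The difference on the log2(TPM + 1) scale shifted upward with doxycycline for 12 members and downward for 5 (limma interaction term), against 4.24% and 5.71% of all genes tested. For members with an LS411N mean under 1 TPM, an upward shift need not be a larger ratio between the lines. For CEACAM7, called upward, the ratio of line means went from 42.5 to 31.3.

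**Figure D2:**
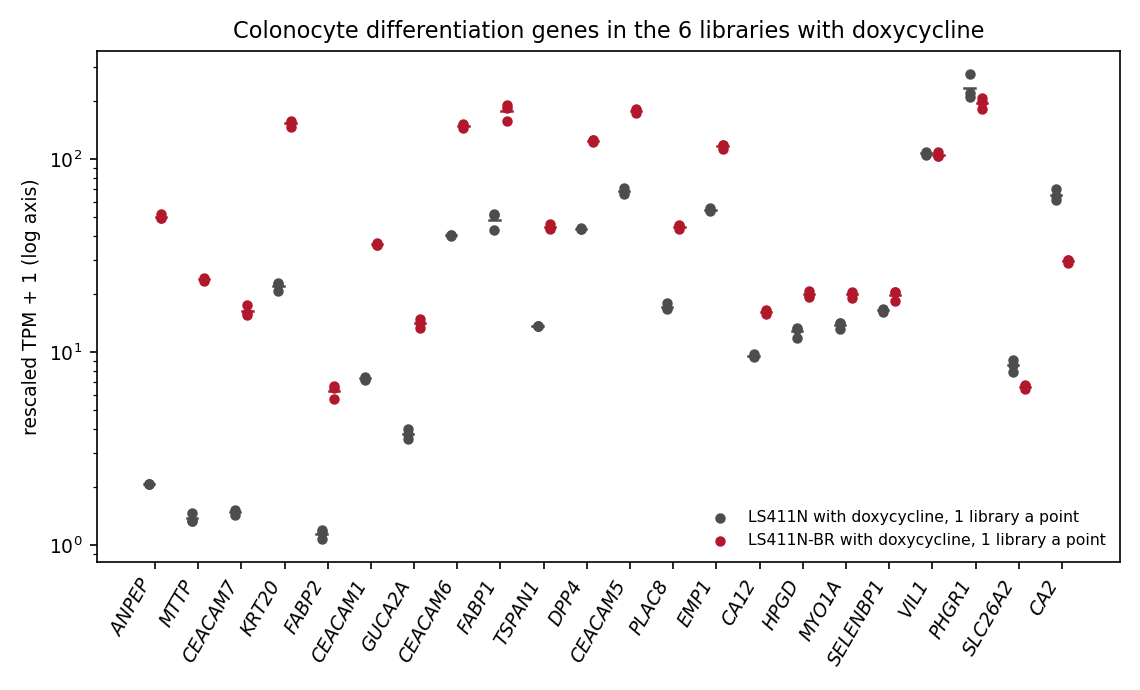
Rescaled TPM + 1 on a log axis for the 22 tested colonocyte genes with a mean of at least 5 TPM in either line; each point is 1 library with doxycycline and each short line a mean of 3. The resistant libraries (red) lie above the parental ones (grey) for most genes, by the most for ANPEP and MTTP, and below them for CA2.

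Transcription factors known to direct intestinal differentiation differed less than these genes. HNF4G, a nuclear receptor of the enterocyte, measured 19.8, 20.6 and 21.7 TPM in LS411N and 41.7, 41.8 and 41.8 TPM in LS411N-BR, a log2 difference of 0.98 ± 0.04 (limma adjusted p = 8.1e-09). HNF4A (0.39), CDX2 (0.6), GATA6 (0.5) and KLF5 (0.58) were called higher with smaller differences. ISX, an intestine-specific homeobox factor, was higher by 1.55 from a parental mean of 0.114 TPM. SOX4 (-1.5), FOXA2 (-1.02) and SOX9 (-0.9), factors of immature or secretory cells, were lower. Over the 36 tested factors, 15 were called higher and 16 lower, against 42.1% and 37.9% of all genes tested.

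The promoters of persisting genes were searched for letters bound by these factors. The window was 250 bases before to 50 after the start site, and both strands were read. RefSeq (GRCh38.p14) gave a promoter for 191 of the 262 persisting higher genes, 241 of the 315 persisting lower genes and 8924 of the genes tested. The 5 motifs and their spellings were chosen after the differences were known, so the shares are a description without a test. The HNF4 letters CAAAGTCC were in 12 of 191 promoters of persisting higher genes (6.28%), 4 of 241 of persisting lower genes (1.66%) and 105 of 8924 of genes tested (1.18%). They were in 1.21% of all 27305 promoters in the table. The GATA letters AGATAA were in 9.42%, 5.81% and 4.62% of the same 3 sets, and the AP-1 letters TGANTCA in 8.9%, 5.81% and 4.49%. The CDX letters TTTATG were in 7.33%, 7.05% and 5.12%, and the KLF letters GGGTGTGG in 2.62%, 3.32% and 2.92%. A match is not a bound site, and the absence of these letters says nothing about the factor.

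Of the persisting higher genes with the HNF4 letters, 7 had at least 10 TPM in the resistant line with doxycycline, and the 4 with the largest differences are printed to show where the letters lie. Each sequence reads 5′ to 3′ on the gene's strand, with CAAAGTCC or its reverse complement in capitals. GPA33 is on the minus strand of chr1:167090328-167090627, with the first capital at base -232 from the start site. CYP2B6 is on the plus strand of chr19:40991032-40991331, with the first capital at -230. CD68 is on the plus strand of chr17:7579388-7579687, with the first capital at 15. APOBEC1 is on the minus strand of chr12:7665859-7666158, with the first capital at -28.
GPA33: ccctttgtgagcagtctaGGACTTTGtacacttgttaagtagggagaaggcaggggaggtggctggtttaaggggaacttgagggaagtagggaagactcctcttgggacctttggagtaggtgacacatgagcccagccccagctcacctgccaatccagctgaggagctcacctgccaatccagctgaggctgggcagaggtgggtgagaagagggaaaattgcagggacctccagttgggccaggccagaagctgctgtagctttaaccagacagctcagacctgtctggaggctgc
CYP2B6: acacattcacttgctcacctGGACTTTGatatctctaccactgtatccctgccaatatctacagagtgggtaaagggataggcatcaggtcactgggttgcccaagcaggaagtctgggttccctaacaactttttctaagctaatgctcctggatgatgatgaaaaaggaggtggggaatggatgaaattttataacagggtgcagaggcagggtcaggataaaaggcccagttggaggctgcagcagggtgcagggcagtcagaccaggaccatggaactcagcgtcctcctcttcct
CD68: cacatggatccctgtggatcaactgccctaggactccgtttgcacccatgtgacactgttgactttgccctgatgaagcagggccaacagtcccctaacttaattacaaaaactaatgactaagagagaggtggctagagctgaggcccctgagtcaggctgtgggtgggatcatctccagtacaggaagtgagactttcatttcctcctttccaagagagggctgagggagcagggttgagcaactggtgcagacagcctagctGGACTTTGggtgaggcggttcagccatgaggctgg
APOBEC1: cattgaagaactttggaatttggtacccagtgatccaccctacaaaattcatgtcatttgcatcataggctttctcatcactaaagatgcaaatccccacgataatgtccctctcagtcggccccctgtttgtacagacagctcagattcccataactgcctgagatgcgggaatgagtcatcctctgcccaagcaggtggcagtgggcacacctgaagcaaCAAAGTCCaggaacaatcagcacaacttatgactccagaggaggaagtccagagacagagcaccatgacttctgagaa

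The 4 genes differ in function and in how their line difference moved. GPA33, a surface antigen of intestinal epithelium, measured 8.1, 7.83 and 7.85 TPM in LS411N and 43.8, 48.6 and 45 TPM in LS411N-BR, a log2 difference of 2.39 ± 0.04 (2.7 without doxycycline). CYP2B6, a drug-oxidizing cytochrome, measured 4.83, 3.76 and 4.16 TPM against 19.2, 17.4 and 18 TPM, a log2 difference of 1.88 ± 0.07. CD68, a lysosomal protein best known from macrophages, measured 24, 22.1 and 21.9 TPM against 73.1, 74.7 and 75 TPM, a log2 difference of 1.67 ± 0.04. The lines did not overlap for any of them, as for 81.9% of all genes tested. APOBEC1, the enzyme that edits apolipoprotein B messenger RNA in the gut, measured 5.57, 6.08 and 6.19 TPM against 15.8, 15 and 16.6 TPM. Its log2 difference of 1.28 ± 0.05 with doxycycline was below the 2.28 without it, a called change of -1.02 ± 0.14 (limma interaction term, adjusted p = 0.00065).

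The transmembrane mucins MUC13, MUC17 and MUC3A were higher in the resistant line. MUC13 measured 131, 127 and 129 TPM in LS411N and 386, 355 and 386 TPM in LS411N-BR, a log2 difference of 1.53 ± 0.04 (limma adjusted p = 6.5e-10). MUC17, a mucin of the enterocyte surface, measured 0.422, 0.374 and 0.478 TPM against 7.18, 5.77 and 7.31 TPM, a log2 difference of 2.44 ± 0.08, and was tested only through the resistant line. MUC3A differed by 1.46. The galectin LGALS3, which binds mucin glycans and MUC1, had means of 344 and 1440 TPM, a log2 difference of 2.06. Of 29 tested genes of mucins and O-glycosylation 11 were called higher and 12 lower, against 42.1% and 37.9% of all genes tested. The list's median was 0, and the 6 with 2-fold calls were all higher. The MUC13 and MUC17 differences were larger with doxycycline, by 0.58 ± 0.06 and 1.23 ± 0.11 (limma interaction term, adjusted p = 6e-05 and 2.6e-05). The ratio of the MUC17 means was 16.3 without doxycycline and 15.9 with it, while its change is on the log2(TPM + 1) scale.

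Several goblet cell genes were lower in the resistant line, some of them more so with doxycycline. Of 16 tested secretory genes, 4 were called higher and 10 lower, against 42.1% and 37.9% of all genes tested. At 2-fold 1 was higher and 6 lower, and the median of the 16 was -0.33. SPDEF was 1 of 2 with a mean under 1 TPM in LS411N-BR, which were tested only through LS411N and so had to be lower. Of the other 14, 1 was 2-fold higher and 4 lower, with a median of -0.18. SPDEF, the transcription factor of goblet cell maturation, measured 5.92, 6.2 and 5.97 TPM in LS411N and 0.176, 0.341 and 0.222 TPM in LS411N-BR, a log2 difference of -2.5 ± 0.06 (limma adjusted p = 3.2e-10). SPINK4, a goblet cell peptide, measured 34.6, 25.8 and 35 TPM against 3.21, 5.62 and 4.36 TPM, a log2 difference of -2.62 ± 0.15. Its lines were level without doxycycline, with means of 26.2 and 25.5 TPM (-0.04, limma adjusted p = 0.74). The lectin REG4 differed by -2.04 with doxycycline and -0.34 without it, and the trefoil peptide TFF1 by -2.43 and -1.13. TFF3 (-1.57) and the disulfide isomerase AGR2 (-1.28) were lower as well, while the enteroendocrine granule protein CHGB was higher by 1.46. The change of the line difference was called downward for 6 of 18 secretory genes tested and upward for 1, against 5.71% and 4.24% of all genes tested.

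**Figure D3:**
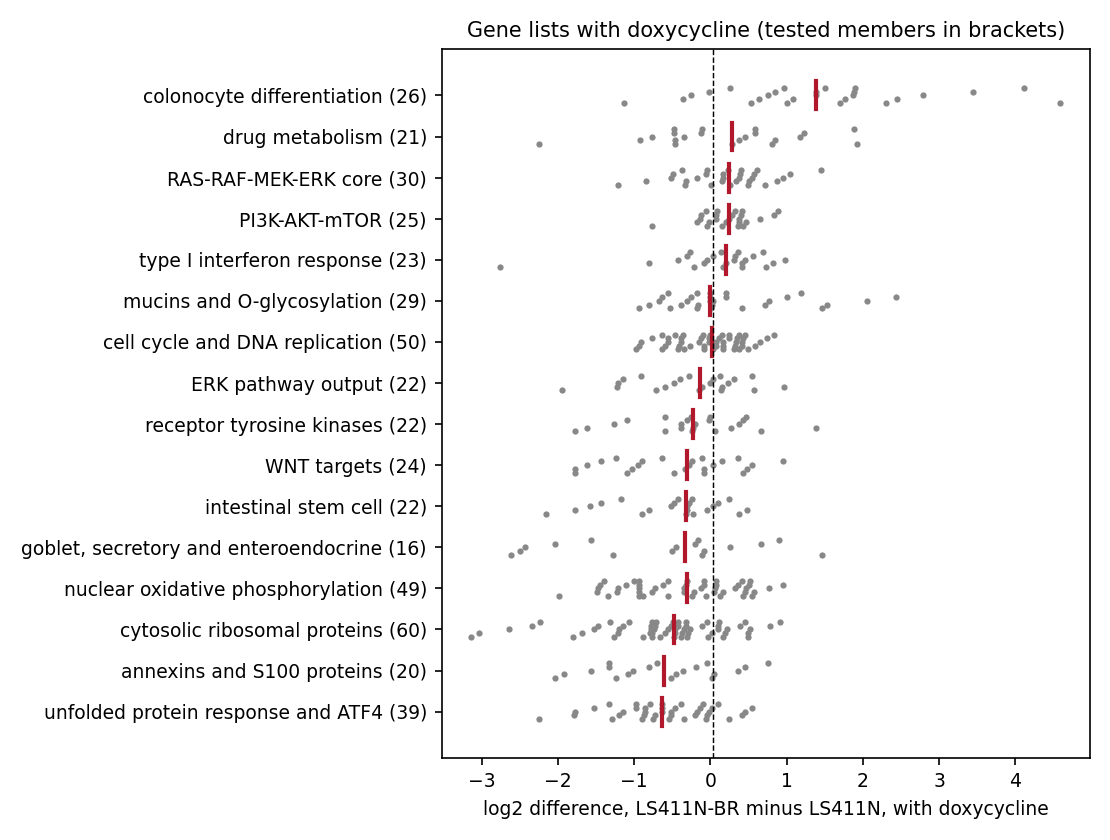
Log2 difference with doxycycline (LS411N-BR minus LS411N) of every tested member of 16 gene lists, 1 point a gene; the red bar is the list's median and the dashed line the median of all genes tested, 0.03. The colonocyte list has the highest median, 1.38, and the unfolded protein response and ATF4 list the lowest, -0.64.

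Stem cell and WNT target genes were called lower more often than higher in the resistant line, against a background of 37.9% lower and 42.1% higher. Of 22 tested stem cell genes 3 were called higher and 16 lower, with 5 at 2-fold, all lower, and a median of -0.32. Of 24 tested WNT targets 6 were called higher and 15 lower, with 7 at 2-fold, all lower, and a median of -0.31. In each list 2 genes, SMOC2 and ROR1 among them, had a mean under 1 TPM in LS411N-BR and had to be lower. Without these, 3 stem cell genes and 5 WNT targets were 2-fold lower, with medians of -0.31 and -0.26. With TPM as deposited, where the median of all genes was 0.21, the stem cell list had 6 higher and 10 lower and the WNT list 7 higher and 12 lower. SMOC2, a matricellular protein of stem cells, measured 6.91, 6.8 and 7.62 TPM in LS411N and 0.971, 0.709 and 0.774 TPM in LS411N-BR, a log2 difference of -2.16 ± 0.07 (limma adjusted p = 1.4e-09). The ephrin receptor EPHB3, which positions cells along the crypt, measured 21.6, 21.3 and 20.6 TPM against 5.34, 5.62 and 5.37 TPM, a log2 difference of -1.78 ± 0.04. ASCL2, the stem cell transcription factor, differed by -1.44, the WNT feedback inhibitor AXIN2 by -0.95 and the WNT co-receptor antagonist KREMEN1 by -1.78. LGR5, the best known crypt stem cell marker, was higher, with 27.6, 32.5 and 30.6 TPM in LS411N and 43.8, 40.5 and 43.2 TPM in LS411N-BR (0.48 ± 0.06). The difference became more negative for SMOC2 (-0.45) and EPHB3 (-0.54) with doxycycline, and the change was called downward for 8 of 22 stem cell genes and upward for 1, against 5.71% and 4.24% of all genes.

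In the cascade that the inhibitor targets, genes differed in both directions, and no test compares its steps. Of 12 tested growth factor ligands 3 were called higher and 7 lower, against 42.1% and 37.9% of all genes tested. Their median was -0.24. Of the 12, 1 had a mean under 1 TPM in LS411N-BR and so had to be lower, and the median of the other 11 was -0.18. Among the ligands AREG had means of 369 TPM in LS411N and 190 TPM in LS411N-BR (-0.96), and VEGFA means of 74.2 and 22.2 TPM (-1.7). Among receptors EGFR was higher, with 14.9, 14.4 and 14 TPM in LS411N and 23.6, 23 and 24.2 TPM in LS411N-BR, a log2 difference of 0.67 ± 0.04 (limma adjusted p = 9.6e-08). MET was also higher (0.43), as was the ephrin receptor EPHA1 (1.38), while the WNT receptors ROR1 (-1.62) and PTK7 (-1.26) were lower. Of 22 tested receptor tyrosine kinases 6 were called higher and 13 lower, with a median of -0.23. Of the 22, 3 had a mean under 1 TPM in LS411N-BR, ROR1 among them, and so had to be lower. Of the other 19, 1 was 2-fold higher and 1 lower, with a median of -0.2.

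Of 30 tested genes of the RAS to ERK core, 19 were called higher and 8 lower, against 42.1% and 37.9% of all genes tested. The median of the core was 0.25, against 0.03 for all genes tested. The adaptor GAB1, which links receptors to RAS, measured 2.06, 1.99 and 2.3 TPM in LS411N and 7.45, 7.69 and 7.3 TPM in LS411N-BR, a log2 difference of 1.45 ± 0.05 (limma adjusted p = 3.8e-09). NRAS (0.72) and BRAF (0.39) were higher by less than 2-fold, each without overlap, as for 81.9% of all genes tested. PEBP1, which encodes the RAF kinase inhibitor protein, measured 249, 256 and 245 TPM against 105, 116 and 101 TPM, a log2 difference of -1.21 ± 0.05. HRAS was lower, with a log2 difference of -0.85. Without doxycycline GAB1 differed by 1.25 and PEBP1 by -0.97. The PEBP1 difference was thus larger with doxycycline, a change of -0.24 ± 0.07 just past the threshold (limma interaction term, adjusted p = 0.05 after rounding). The changes of GAB1 (0.17, adjusted p = 0.19) and EGFR (0.05, adjusted p = 0.75) were not called by the limma interaction term.

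Transcriptional outputs of ERK were split. Of 22 tested outputs 7 were called higher and 12 lower, against 42.1% and 37.9% of all genes tested. The 4 at 2-fold were all lower and all persisting. Of the 22, 1 had a mean under 1 TPM in LS411N-BR and so had to be lower. Of the other 21, 3 were 2-fold lower, with a median of -0.11. The list's median was -0.13, and with TPM as deposited it was 0.07 beside a median of 0.21 for all genes. PHLDA1 measured 116, 126 and 128 TPM in LS411N and 28.7, 32.4 and 33.3 TPM in LS411N-BR, a log2 difference of -1.94 ± 0.06 (limma adjusted p = 1.1e-09). The ERK phosphatase DUSP4 measured 8.1, 8.15 and 8.29 TPM against 2.9, 2.96 and 3.02 TPM (-1.21 ± 0.04), and the immediate early gene IER3 differed by -1.22. DUSP6, the phosphatase most often read as an ERK output, differed by -0.48, with 38.6, 42.9 and 40.6 TPM against 29.1, 29.1 and 28.4 TPM. DUSP5, the nuclear ERK phosphatase, was higher by 0.97. The change was upward for DUSP4 (0.44, adjusted p = 0.001) and downward for PHLDA1 (-0.49, adjusted p = 0.007), by the limma interaction term. In the PI3K, AKT and mTOR list, 15 of 25 tested genes were called higher and 4 lower with no 2-fold call, and the median was 0.24.

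The efflux pumps ABCG2 and ABCB1 were higher in the resistant line. ABCG2, the breast cancer resistance protein, measured 22.5, 25.3 and 24.5 TPM in LS411N and 59.9, 59.8 and 61.2 TPM in LS411N-BR, a log2 difference of 1.29 ± 0.05 (limma adjusted p = 2.9e-09). ABCB1, which encodes P-glycoprotein, measured 0.158, 0.203 and 0.151 TPM against 1.66, 1.76 and 1.61 TPM, a log2 difference of 1.19 ± 0.06. ABCB1 was tested only through the resistant line. The other 8 tested pumps differed by 0.5 or less. The ABCG2 difference was larger with doxycycline, by 0.34 ± 0.06 (limma interaction term, adjusted p = 0.0053). For ABCB1 the change on the log2(TPM + 1) scale was 0.78 ± 0.1 (adjusted p = 0.00028), but the ratio of the line means went the other way, from 30.5 without doxycycline, where the gene was too low to test, to 9.83 with it. Of 21 tested metabolic enzymes 11 were called higher and 8 lower, against 42.1% and 37.9% of all genes tested. Of the 21, 4 were 2-fold higher and 1 lower. UGT1A1, the bilirubin glucuronosyltransferase, differed by 1.93, though the UGT1A genes share exons and their reads may be split. The ketoreductase AKR1C3 measured 11.8, 11.3 and 10.8 TPM against 1.57, 1.87 and 1.32 TPM (-2.25 ± 0.07), and it too has near-identical family members.

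The unfolded protein response and the amino acid stress program of ATF4 were lower in the resistant line. Of 39 tested genes 5 were called higher and 29 lower, against 42.1% and 37.9% of all genes tested. The 8 at 2-fold were all lower, and the median was -0.64. ATF4 itself measured 512, 470 and 460 TPM in LS411N and 244, 248 and 239 TPM in LS411N-BR, a log2 difference of -0.98 ± 0.05 (limma adjusted p = 2e-08). DDIT3, the stress factor CHOP, measured 42.1, 41.6 and 43 TPM against 12.7, 11.3 and 10.9 TPM (-1.78 ± 0.05). The cystine transporter SLC7A11 measured 45.4, 49 and 50.3 TPM against 12.5, 13.4 and 14 TPM (-1.79 ± 0.05). The serine synthesis enzyme PHGDH differed by -1.53, and the stress protein NUPR1 by -2.25. None of these 5 genes overlapped between lines, as for 81.9% of all genes tested. The change was called downward for 15 of 39 genes, against 5.71% of all genes called downward, and at an adjusted p of 0.00041 for SLC7A11 (limma interaction term).

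Genes of glycolysis and hypoxia were mixed, with 13 of 37 called higher and 15 lower, against 42.1% and 37.9% of all genes tested. Their median was -0.02, which was 0.17 with TPM as deposited, below the 0.21 of all genes. The pyruvate kinase PKM measured 745, 729 and 668 TPM in LS411N and 309, 322 and 305 TPM in LS411N-BR (-1.19 ± 0.05). The mTOR inhibitor DDIT4 had means of 273 and 76.1 TPM (-1.83). In this list the change was called downward for 13 of 37 genes (limma interaction term), against 5.71% of all genes. Of 20 annexins and S100 proteins 3 were called higher and 14 lower, with 8 at 2-fold, all lower. Of the 20, 1 had a mean under 1 TPM in LS411N-BR and so had to be lower. Of the other 19, 7 were 2-fold lower, with a median of -0.51. S100A6 measured 2140, 2100 and 2100 TPM against 715, 773 and 659 TPM (-1.56 ± 0.06), and S100A4 had means of 66.9 and 15.5 TPM (-2.04). FN1, the matrix protein fibronectin, measured 7.15, 7.24 and 6.45 TPM in LS411N and 0.0692, 0.0612 and 0.115 TPM in LS411N-BR, a log2 difference of -2.88 ± 0.06. FN1 was tested only through LS411N and so had to be lower. It belongs to a mesenchymal list of which 3 of 6 tested members were called higher and 3 lower.

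Proliferation genes did not lean to either line. Of 50 tested genes of the cell cycle 21 were called higher and 21 lower, against 42.1% and 37.9% of all genes tested. None was called at 2-fold, and the median was 0.02. With TPM as deposited 28 were called higher and 15 lower, and with rescaling over shared genes alone 15 higher and 25 lower. MKI67 measured 72.4, 62.5 and 64.6 TPM in LS411N and 80.3, 73.9 and 82.6 TPM in LS411N-BR (0.24 ± 0.06), and MYC had means of 98.4 and 109 TPM (0.15). The cell cycle inhibitor CDKN1A was higher, with 27.3, 26.5 and 25.5 TPM against 66.1, 64.6 and 63.5 TPM, a log2 difference of 1.26 ± 0.04 (limma adjusted p = 1.2e-09). The death receptor FAS was higher too, with means of 2.45 and 10.5 TPM (1.74). Other genes of the p53 list were lower, such as GDF15 (-1.71) and the DNA repair gene XPC (-1.36), and of 34 tested 8 were called higher and 18 lower. Of 24 tested genes of the NF-kB and chemokine list 10 were called higher and 9 lower, with a median of -0.07. The 4 at 2-fold were all lower, the chemokines CXCL3 (-2.47), CXCL1 (-2.03) and CXCL8 (-1.98) and the receptor CXCR4 (-1.16). CXCL1 alone of them had a mean of 1 TPM or more in both lines, and the other 3 had to be lower. Among 23 interferon response genes, 2 had an LS411N mean under 1 TPM and so had to be higher. Of the 23, 14 were called higher and 6 lower, against 42.1% and 37.9% of all genes tested. IFI6, which was tested only through LS411N and so had to be lower, was the only one at 2-fold, with 8.37, 9.64 and 8.55 TPM in LS411N and 0.599, 0.215 and 0.587 TPM in LS411N-BR (-2.76 ± 0.1).

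Cytosolic ribosomal proteins and subunits of the respiratory chain were called lower more often than higher. Of 60 tested ribosomal protein genes 10 were called higher and 43 lower, against 42.1% and 37.9% of all genes tested. The 15 at 2-fold were all lower, and the median of the 60 was -0.48. RPS27 measured 2010, 2020 and 2010 TPM in LS411N and 243, 243 and 198 TPM in LS411N-BR, a log2 difference of -3.14 ± 0.07 (limma adjusted p = 1.6e-10). RPLP1 measured 4350, 4320 and 4390 TPM against 608, 547 and 451 TPM, a log2 difference of -3.03 ± 0.09. Ribosomal protein genes have many processed copies, so these values are uncertain. Of 49 tested respiratory chain genes 14 were called higher and 28 lower, with 9 at 2-fold, all lower, and a median of -0.31. COX4I1, a subunit of cytochrome c oxidase, measured 420, 432 and 428 TPM against 111, 114 and 96.6 TPM (-1.99 ± 0.06). With TPM as deposited, where the median of all genes was 0.21, ribosomal proteins had 15 higher and 38 lower, while the respiratory chain had 18 higher and 22 lower with a median of -0.07. The changes of the line difference were not called for RPS27 (-0.22, adjusted p = 0.16), RPLP1 (-0.13, adjusted p = 0.52) or COX4I1 (-0.15, adjusted p = 0.3) by the limma interaction term.

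Short transcripts differed more between the lines, in both directions and more often toward the parental line. Among protein-coding genes whose longest transcript is under 800 bases, 23.1% of 143 were 2-fold lower and 8.39% 2-fold higher, and the median difference was -0.33. Among those of 5000 bases or more 1.87% of 3213 were 2-fold lower and 2.96% 2-fold higher, and the median was 0.1. The part of length in the differences of short genes, which include RPS27, S100A6, SPINK4 and TFF1, was not tested. Without short genes, among transcripts of at least 2000 bases, 12 colonocyte genes were 2-fold higher with a median of 1.34, and the median of the 39-gene stress list moved from -0.64 to -0.67. For ribosomal proteins it moved to -0.76 and for the respiratory chain to -0.13. Goblet cell genes had 1 of 8 still 2-fold lower and a median of -0.21, and annexins and S100 proteins 2 of 8 with a median of -0.36. All 4 of the NF-kB and chemokine genes at 2-fold are shorter than 2000 bases, and the 16 that remained had a median of 0.1.

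**Figure D4:**
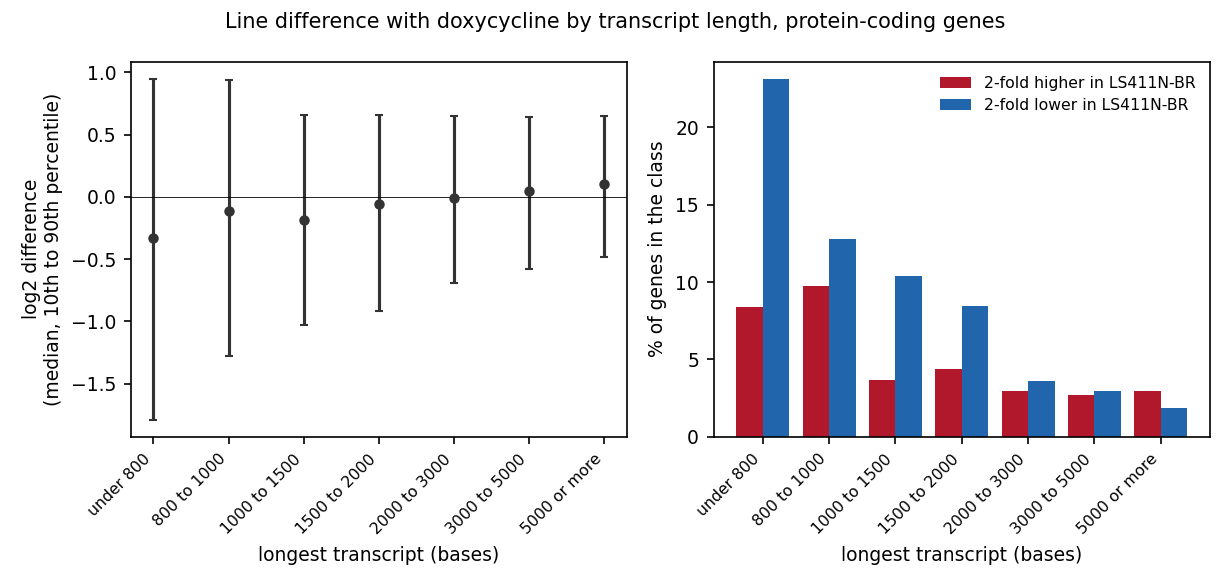
Left, the median log2 difference with doxycycline (LS411N-BR minus LS411N; bars span the 10th to 90th percentile of genes) in 7 classes of longest transcript; right, the percentage of genes in each class that were 2-fold higher (red) or lower (blue). The share of 2-fold lower genes goes from 23.1% in the shortest class to 1.87% in the longest.

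The line difference itself changed with doxycycline for a minority of genes. The interaction of line and doxycycline was called for 503 of 11858 genes in the upward direction (4.24%) and 677 in the downward direction (5.71%), 9.95% in all, and was 2-fold for 21 (0.177%) and 22 (0.186%), 0.363% in all. Without replicate 3 of LS411N without doxycycline, the library that stood apart, 967 and 1386 were called. Of the 577 persisting genes 111 had a called change, 54 of them higher and 57 lower in LS411N-BR. Differences of 2-fold without doxycycline narrowed for 91 genes, 64 higher and 27 lower in LS411N-BR. Differences of 2-fold with doxycycline widened for 149 genes, 63 higher and 86 lower. These counts depend on the scaling. Rescaled over shared genes alone, 209 changes were upward and 102 downward, with 47 genes narrowed and 75 widened. With TPM as deposited 162 were upward and 85 downward, with 32 narrowed and 72 widened. A 2-fold call with doxycycline alone was made for 252 genes, of which 82 had a called change, and without it alone for 129 genes, of which 47 did.

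REG1A, a lectin of the regenerating gut epithelium, narrowed the most. It had means of 0.477 TPM in LS411N and 54.2 TPM in LS411N-BR without doxycycline, and measured 0.187, 0 and 0.412 TPM against 5.88, 6.79 and 7.25 TPM with it. The lines still did not overlap, and the change was -2.64 ± 0.18 (SE, limma interaction term, adjusted p = 5e-06). With a pseudocount of 0.1 TPM the REG1A change was -1.91 and was not called (adjusted p = 0.08). The chemokine receptor CXCR4 had means of 11.5 and 0.651 TPM without doxycycline and 1.9 and 0.298 TPM with it, a change of 1.83 ± 0.11. TNFRSF11B, the decoy receptor osteoprotegerin, had means of 10.1 and 2.28 TPM without doxycycline. With doxycycline it measured 2.47, 3.53 and 2.27 TPM in LS411N and 2.21, 2.43 and 2.64 TPM in LS411N-BR, and the lines overlapped (-0.12, limma adjusted p = 0.33). The membrane protein TM4SF1 differed by -1.2 without doxycycline and by -0.18 with it. SERPINI1, an inhibitor of serine proteases, went from 2.66 to 1.35.

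Among widened genes SPINK4 (-2.56 ± 0.22), REG4 (-1.69 ± 0.09) and TFF1 (-1.28 ± 0.2) moved downward, and CEACAM7 (1.43 ± 0.09) and CEACAM1 (1.3 ± 0.05) upward. SPINK4, REG4 and TFF1 are goblet cell genes, and all were lower in LS411N-BR with doxycycline. The CEACAM1 difference was 2.3 with doxycycline and 0.99 without it (limma interaction term, adjusted p = 4.6e-08). CEACAM7 had means of 0.0733 and 3.12 TPM without doxycycline, a difference of 1.94 that became 3.45 with it. That widening depends on the scale, because the ratio of the line means went from 42.5 to 31.3, and with a pseudocount of 0.1 TPM the CEACAM7 change was 0.44 (limma interaction term, adjusted p = 0.11).

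**Figure D5:**
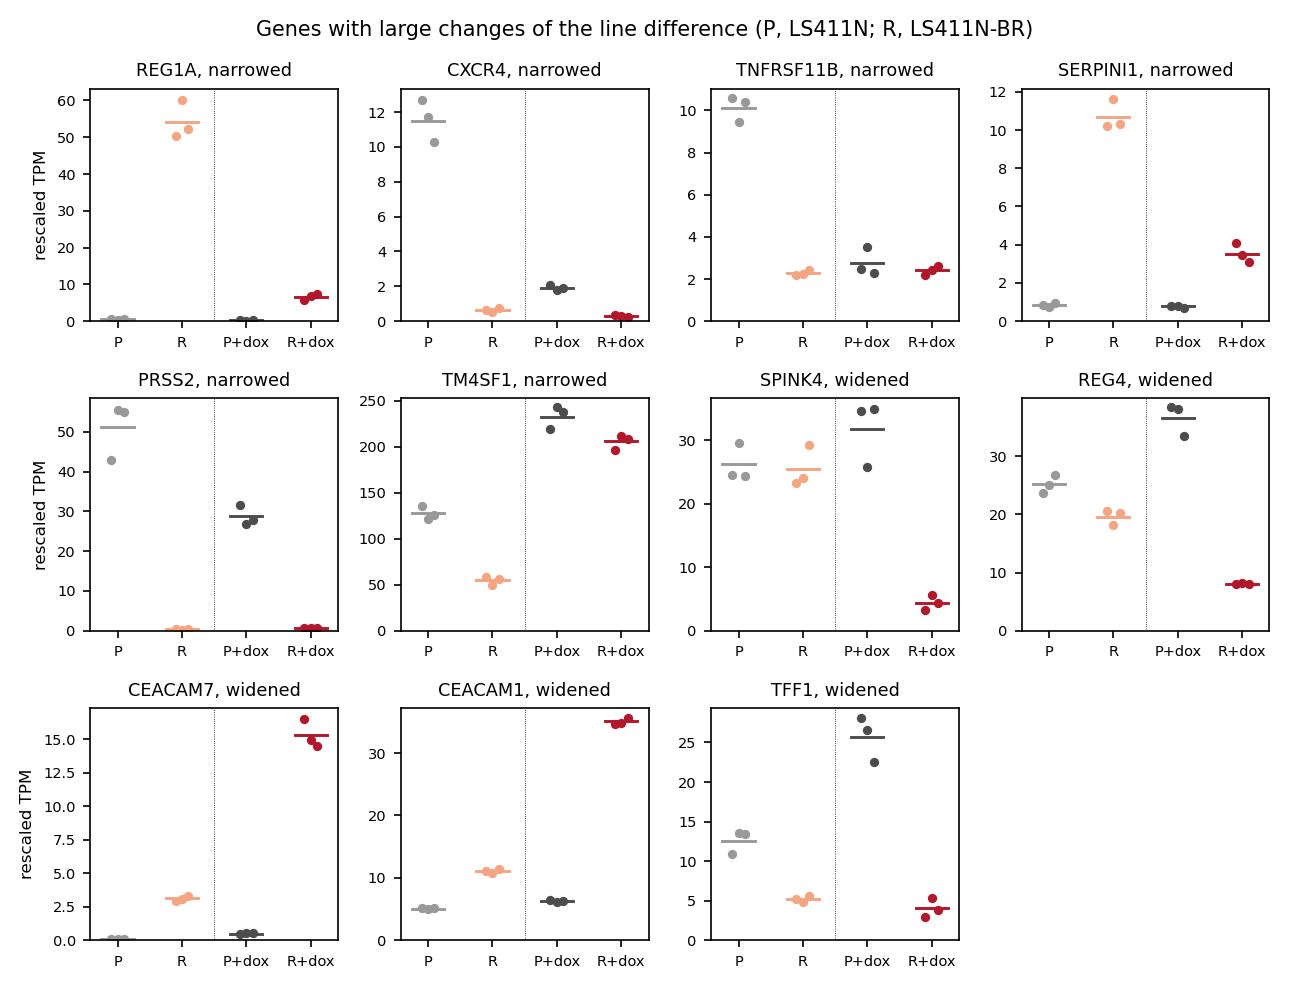
Rescaled TPM of 6 narrowed and 5 widened genes with large changes of the line difference; P is LS411N, R is LS411N-BR, dox is doxycycline, each point is 1 library and each line a mean of 3. Levels compare within each side of the dotted line, since the sides were scaled separately. P and R are apart on the left and close on the right for TNFRSF11B, and the reverse for SPINK4.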

How the data were processed

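Each deposited value is the TPM of a gene in a library, in 1 table per line. STAR, DESeq2 and GRCh38 are named, without roles, per the submitters' processing notes. The sources used here give neither the program that made the TPM nor read totals, so the depth is unknown and counting intervals are left out. The tables list 25673 genes for LS411N and 25540 for LS411N-BR. TPM were rescaled over the 25540 shared genes and by the median of ratios within each set of libraries compared. Genes reaching 1 TPM in 3 or more libraries entered limma 3.58.1 (R 4.3.3) on log2(TPM + 1), with an intensity trend and two-sided tests. The threshold for a call was 0.05 after Benjamini-Hochberg adjustment. The prior degrees of freedom were 6.11 with doxycycline. Line differences with and without doxycycline were fitted on 6 libraries each, and their change is the interaction term over 12. Narrowed means a 2-fold call without doxycycline, a called change and a smaller absolute difference with it. Widened means a 2-fold call with doxycycline, a called change and a larger absolute difference with it.

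On simulated data with 200 changed genes, the test with doxycycline recovered 100% of those changed 1.5-fold and 100% of those changed 2-fold among 11464 genes, and 7.41% of its calls were false. The test of the change recovered 99% and 100% among 11613 genes, with 2.93% false. The changed genes had a mean of at least 5 TPM, and the noise was normal, independent between libraries and smoothed over genes of similar level. These shares therefore do not cover genes of fewer TPM, nor data in which 80% of genes are called. Transcript lengths and gene types came from GENCODE 29 and promoters from RefSeq.

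Named genes are MUC1, the 10 largest 2-fold differences in each direction with non-overlapping lines and a higher mean of at least 10 TPM, up to 4 called members per list with the largest difference and members needed to describe a pathway, the 5 persisting genes in each direction whose smaller difference is largest, and the 6 narrowed and 6 widened genes with the largest change and a higher mean of at least 10 TPM. A few genes meeting this rule are left out and not reported here. The comparison, the 34 gene lists and the 5 marker lists were chosen with earlier results of these data known. Alternatives covered the pseudocount, the filter, the scaling, the moderation, the fold, each library left out, the replicate number as a block, and a restriction to long transcripts.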

Additional observations from a re-analysis of the deposited data

Results flagged for a closer look

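For 22 genes named for the size, persistence or change of their line difference, the difference with doxycycline differed from that without it. The test was the interaction term of limma at an adjusted p under 0.05. Genes named through a gene list alone are not counted here. The change of the log2 difference (LS411N-BR minus LS411N, with minus without doxycycline) was -2.64 for REG1A, -2.56 for SPINK4, -1.69 for REG4, -1.36 for SERPINI1 and -1.28 for TFF1. It was -0.95 for ALDH3A1, -0.85 for LYZ, -0.73 for TSPAN7, -0.69 for PLA2G2A, -0.53 for ACTL8 and -0.27 for TMEM200A. Upward changes were 0.37 for TMEM132D-AS1, 0.75 for ANPEP, 0.88 for FAM84A, 0.96 for MTTP, 1.03 for TM4SF1 and 1.07 for C10ORF99. The highest were 1.21 for PRSS2, 1.3 for CEACAM1, 1.43 for CEACAM7, 1.66 for TNFRSF11B and 1.83 for CXCR4. REG1A, CXCR4, SPINK4, CEACAM7 and others were named for the size of this change, so these values describe them and add no separate support. All 22 changes are on the log2(TPM + 1) scale. Where the LS411N mean is under 1 TPM, such a change can follow the LS411N-BR level while the ratio of line means moves little. With doxycycline that ratio went from 33.7 to 36.7 for C10ORF99, from 50.5 to 59.6 for MTTP and from 366 to 351 for TMEM200A.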

How the results depend on the processing

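Of 2486 alternative values of named genes, 2482 kept their direction and their side of the threshold. TM4SF1 with doxycycline turned to 0.03 (limma adjusted p = 0.66) with TPM as deposited. At a pseudocount of 0.1 TPM the changes of REG1A (-1.91, adjusted p = 0.08) and CEACAM7 (0.44, adjusted p = 0.11) were no longer called by limma, and TNFRSF11B with doxycycline was called (-0.22, adjusted p = 0.039) with rescaling over shared genes alone. The choice of scaling moved the share of calls higher in LS411N-BR from 52.6% to 39.5% with shared genes alone and 70.1% with TPM as deposited, where the median of all genes was -0.1 and 0.21. The cause of the movements below was not tested, apart from those that follow from fewer genes or another fold. The depth of the libraries is unknown, and the tables of the lines were scaled over different genes, which cannot be told apart from the line.

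With shared genes alone, genes without doxycycline were called higher in 1569 cases and were 2-fold higher in 195 and lower in 742; the change was called upward for 209 and downward for 102, persisting genes were 158 higher and 565 lower, and 47 narrowed and 75 widened. With TPM as deposited 2694 were called lower with doxycycline and 2128 without it, 643 were 2-fold higher and 293 lower with doxycycline, the change was called for 162 and 85, and 32 narrowed and 72 widened. A pseudocount of 0.1 TPM gave 739 genes 2-fold lower with doxycycline, 591 without it, 44 with a 2-fold downward change and 476 persisting lower. A minimum of 5 TPM gave 11 genes with a 2-fold upward change and 59 narrowed. Persisting genes were 1071 higher and 1075 lower at 1.5-fold, with 205 narrowed and 340 widened, and 55 higher and 84 lower at 3-fold, with 38 and 66. Protein-coding genes of at least 2000 bases, an alternative chosen after seeing the data, held 231 genes 2-fold higher and 273 lower with doxycycline, 211 and 215 without it, 13 and 6 with a 2-fold change, 154 and 175 persisting, and 60 list members 2-fold lower.

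Leaving out 1 library gave 4515 to 4826 genes called higher and 4011 to 4225 lower with doxycycline, 288 to 404 and 405 to 508 at 2-fold. Without doxycycline the ranges were 3871 to 4959 and 3325 to 4010, and 280 to 374 and 316 to 370 at 2-fold. The change was called upward for 269 to 967 and downward for 391 to 1386, at 2-fold for 15 to 21 and 15 to 26. Persisting genes were 203 to 265 higher and 265 to 319 lower, narrowed 55 to 130 and widened 100 to 196, and list members 2-fold higher 39 to 47 and lower 86 to 104. The most called changes came without replicate 3 of LS411N without doxycycline and the fewest without replicate 1 of LS411N-BR with doxycycline. Upward changes were also 296, 326 and 298 without replicates 1, 2 and 3 of LS411N-BR without doxycycline and 284 without replicate 3 of LS411N-BR with doxycycline. Narrowed genes were 55 without either replicate 2 or replicate 3 of LS411N with doxycycline, 58 without replicate 3 of LS411N-BR without doxycycline, and 56 and 58 without replicates 1 and 3 of LS411N-BR with doxycycline. In a fit with the replicate number as a block the persisting genes were 262 and 315, the calls with doxycycline 4902 and 4416, the changes 499 and 714, narrowed 96 and widened 161. Deviations of same-numbered libraries from the means of their groups correlated at 0.177, -0.105 and 0.11 with doxycycline. Pairs with different numbers ranged from -0.201 to 0.0919. With 3 libraries a group, these values cannot show whether libraries of the same number were handled together.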

Other observations

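Adhesion genes not described above differed in both directions. The desmosomal plakophilin PKP2 measured 58.3, 63.9 and 62.8 TPM in LS411N with doxycycline and 210, 210 and 214 TPM in LS411N-BR with doxycycline, a log2 difference of 1.76 ± 0.04 (limma adjusted p = 1.9e-10). The leaky-junction claudin CLDN2 measured 72.9, 63.7 and 65.4 TPM against 10.6, 10.8 and 11.3 TPM (-2.52 ± 0.05). Neither gene overlapped between the lines, as for 81.9% of all genes tested. The kinase FYN of the SRC family had means of 11.5 and 2.31 TPM (-1.91). The polyamine synthesis enzyme SRM had means of 62.7 and 180 TPM (1.5). The elastase inhibitor PI3 had means of 23.3 and 79.3 TPM (1.73). Over 38 tested keratins and junction genes 18 were called higher and 10 lower, against 42.1% and 37.9% of all genes tested. At 2-fold there were 4 in each direction. Of the 38, 1 had a mean under 1 TPM in LS411N-BR and so had to be lower. Of the other 37, 4 were 2-fold higher and 3 lower.

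Some chromosome segments lay to one side over 40 neighbouring tested genes, as a description without a test, since neighbours are not independent. The highest median with doxycycline was 0.52, from AGR2 to HOXA9 on chromosome 7 (chr7:16791811-27175180 on GRCh38), where the median without doxycycline was 0.49. Next was 0.49, from CCNC to TRAF3IP2 on chromosome 6 (chr6:99542380-111606278), with 0.39 without doxycycline. The lowest was -0.51, from LSM2 to C6ORF106 on chromosome 6 (chr6:31797396-34696859), with -0.47 without doxycycline. The median longest transcript was 3376.5, 4424 and 2452.5 bases in these segments.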
